A study of Mus musculus with 2 samples.

Results

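The brush border peptidases were taken as 9 genes listed by name, Anpep, Enpep, Dpp4, Mme, Ace, Mep1a, Mep1b, Tmprss15 and Ggt1. All array probesets annotated with one of these symbols, or with an older name such as Prss7 for Tmprss15, were included. This gave 14 probesets for 8 of the 9 genes, among 45037 probesets on the array. No probeset was annotated with Ggt1, the γ-glutamyltransferase that opens extracellular glutathione, and it was not analysed here. The comparison was between small intestinal RNA of mice fed a control sHFf diet, with flaxseed oil rich in ALA as its only lipid, and of mice fed the EPA&DHA diet (sHFf-F2). In the latter, 44% of the lipid was exchanged for a concentrate with 6% EPA and 51% DHA. All animals were wildtype male C57BL/6J mice, an inbred strain, aged 4 months, and both diets held 20% fat by weight and were fed for 4 weeks. Of the 12 mice per diet, 10 on control and 11 on EPA&DHA contributed RNA to a pool, and each pool was hybridized to 1 array. The spread between mice was therefore not measured, and no standard error, test or p-value could be computed.

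Dietary protein is first cut by pancreatic proteases in the lumen, and the peptides that result are trimmed by enzymes anchored in the apical membrane of enterocytes, the brush border. Aminopeptidases and dipeptidyl peptidase 4 remove residues from the amino end, peptidyl dipeptidase activity works from the carboxyl end, and neprilysin and the meprins cut inside the chain. The products are absorbed as free amino acids or as short peptides through the carrier PepT1. Enteropeptidase has a separate role, since it activates trypsinogen from the pancreas and trypsin then activates the other pancreatic zymogens. Several of these enzymes also act on hormones and signalling peptides.

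The values are MAS 5.0 signals, the summarized brightness of a probeset in array units, and the ratio is that of EPA&DHA over control. Signals of different probesets cannot be compared with each other. As a scale for each ratio, the robust SD of the log2 ratios of the 500 probesets nearest in signal is given and called the local SD. It describes the scatter between these arrays, not between mice. The analysis kept the 54% of probesets with the highest mean signal (24320, lowest mean signal 50.8), and all 14 peptidase probesets were among them. Across all kept probesets the median log2 ratio was -0.04. Transcripts spiked into the RNA before labelling were in median 1.27-fold higher on the EPA&DHA array over 24 probesets. Those added at hybridization went slightly the other way, with a median log2 ratio of -0.11 over 18 probesets. The ratio of 3′ to 5′ signal was 0.932 and 0.793 for Gapdh and 1.22 and 1.16 for Actb on the control and EPA&DHA arrays. Their part in any result was not tested.

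**Figure D1:**
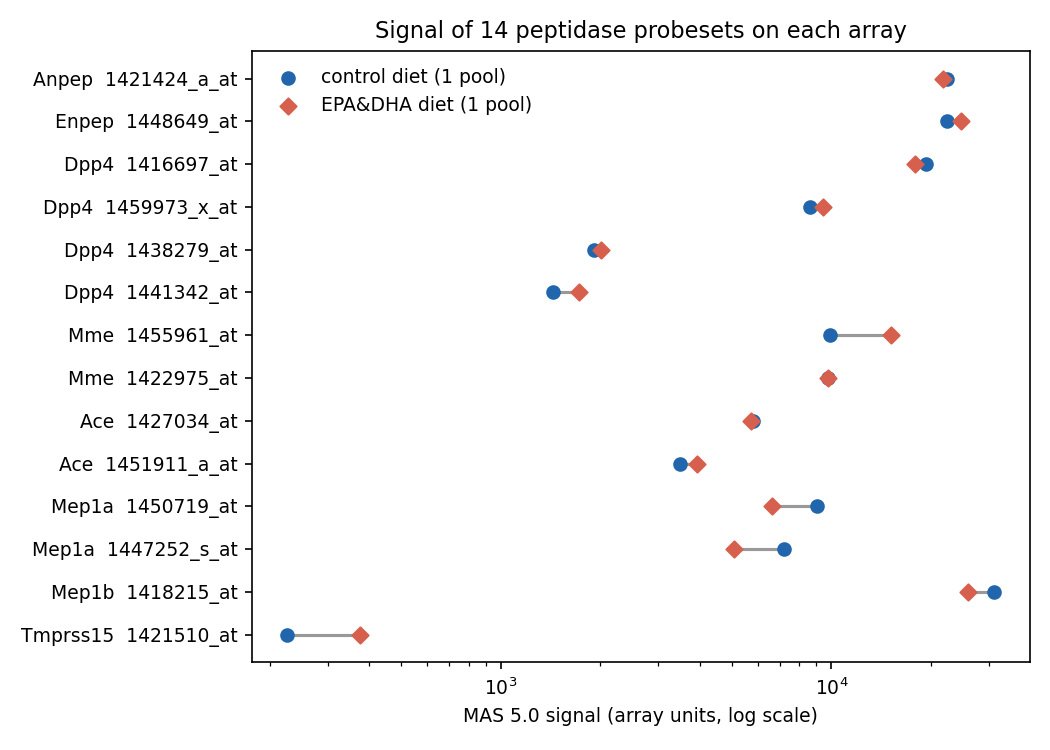
MAS 5.0 signal (x axis, array units, log scale) of each of the 14 peptidase probesets (rows) on the control array (blue circles) and the EPA&DHA array (red diamonds), 1 pool each. Points are to be compared within a row. Anpep and the Mme probeset 1422975_at nearly coincide, both Mep1a rows lie to the left on EPA&DHA, and Mme 1455961_at and Tmprss15 lie to the right.

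The exopeptidases that remove residues from the amino end differed little between the diets. Anpep, aminopeptidase N, which releases neutral residues, had a signal of 22390 with control and 21740 with EPA&DHA feeding. Its log2 ratio of -0.04 was small beside the local SD of 0.19, and turned to 0.03 after quantile normalization. Enpep, aminopeptidase A, which removes acidic residues and also processes angiotensin II, had signals of 22427 and 24707. The EPA&DHA signal was 1.10-fold higher, with a log2 ratio of 0.14 and a local SD of 0.20. Both enzymes were read by 1 probeset each, among the brightest on the array, with 99.2% and 99.3% of kept probesets dimmer.

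Dpp4, which clips dipeptides that carry proline or alanine in the penultimate position and also inactivates incretin hormones, was read by 4 probesets. On the brightest the signal was 19376 on control and 17954 on EPA&DHA. Its log2 ratio was -0.11, with a local SD of 0.20. The other 3 probesets were slightly higher on EPA&DHA, with signals of 8644 and 9417, 1909 and 2009, and 1436 and 1726. Their log2 ratios were 0.12, 0.07 and 0.27, against local SDs of 0.23, 0.25 and 0.25. The sign of the Dpp4 ratio thus depended on the probeset, and the mean over the 4 was 0.09.

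Mme encodes neprilysin, an endopeptidase that degrades short peptides such as enkephalins and substance P. Its probesets gave different answers. Probeset 1455961_at had a signal of 9927 on control and 15152 on EPA&DHA. The difference was 1.53-fold, or 0.61 on the log2 scale, where the local SD was 0.23. Probeset 1422975_at had signals of 9736 and 9787, a log2 ratio of 0.01 with a local SD of 0.24. The gap of 0.60 between them was wide for bright genes. Among 784 genes with exactly 2 probesets in the brightest 25% of kept probesets, the median gap was 0.20, and 7.53% had a gap as large as that of Mme or larger. The mean log2 ratio of both was 0.31. The annotation used here does not tell which transcripts each probeset reads. RefSeq lists 3 transcript starts for Mme, spread over 884 bases.

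Ace, angiotensin-converting enzyme, removes dipeptides from the carboxyl end and converts angiotensin I. Signals were 5779 on control and 5713 on EPA&DHA for the brighter probeset. Its log2 ratio was -0.02, with a local SD of 0.25. For the other probeset they were 3491 and 3927, a log2 ratio of 0.17 with a local SD of 0.20. Neither ratio exceeded its local SD, and the gap of 0.19 between them was near the median for bright genes. RefSeq lists 2 transcript starts for Ace, 7241 bases apart.

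**Figure D2:**
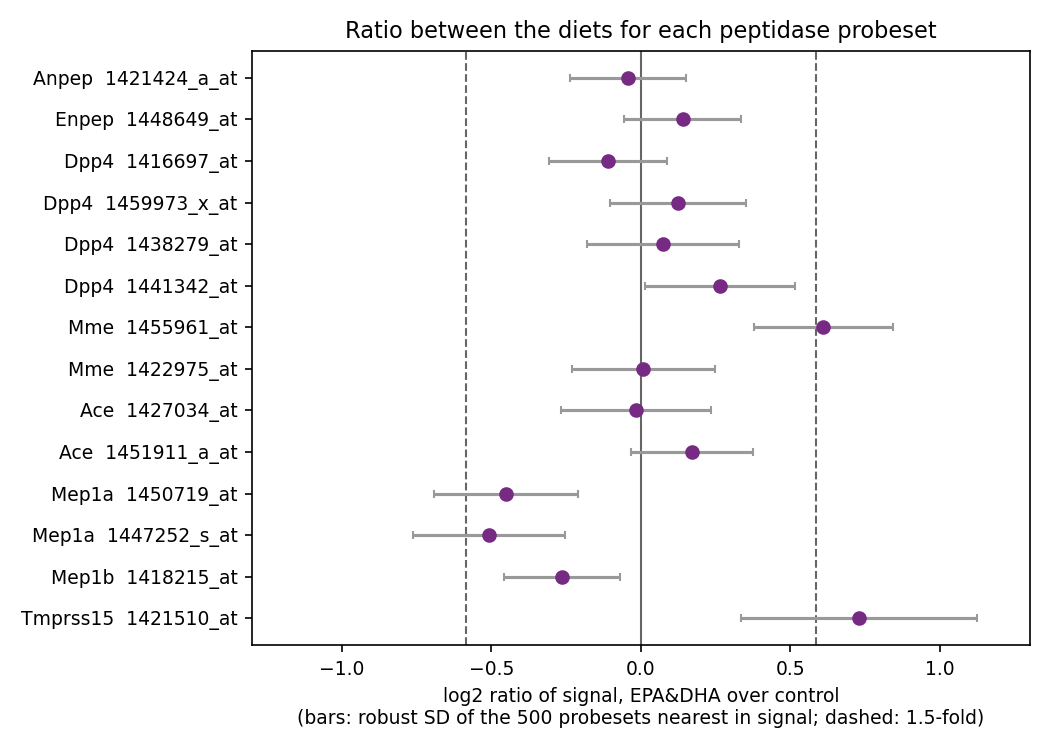
Log2 ratio of signal, EPA&DHA over control (x axis), for each of the 14 peptidase probesets (points). Bars are the robust SD of the 500 probesets nearest in signal, not an error between mice, and dashed lines mark 1.5-fold. The bars of 8 probesets span 0, and 6 do not. The same share over all kept probesets was not computed, so whether this count is unusual is not known.

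The meprins had lower signals on EPA&DHA on all of their probesets. These astacin metalloproteases are abundant in the brush border of rodents, where the α and β subunits form homo- and heterooligomers. Mep1a, the α subunit, had signals of 9050 on control and 6620 on EPA&DHA with one probeset, 1.37-fold lower, and of 7190 and 5058 with the other, 1.42-fold lower. On the log2 scale these were -0.45 and -0.51, with local SDs of 0.24 and 0.25. The gap between them was 0.06, and 83.7% of bright genes with 2 probesets had a larger or equal gap. The second of these probesets carries the suffix _s_at, which marks probes that can match more than 1 transcript, although only Mep1a is annotated. Mep1b, the β subunit, had signals of 31109 on control and 25908 on EPA&DHA. This was 1.20-fold lower, or -0.26 on the log2 scale, with a local SD of 0.19, and -0.14 after quantile normalization. None of the meprin ratios reached 1.5-fold.

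Tmprss15, enteropeptidase, had the highest ratio of the 14 probesets and the lowest position in signal. Its probeset had a signal of 226 on control and 375 on EPA&DHA, a ratio of 1.66. On the log2 scale this was 0.73, and the local SD there was 0.39. Only 48.5% of kept probesets were dimmer, against 80.7% or more for each of the other 13 peptidase probesets, and the scatter of ratios was accordingly wider. In the 25% to 50% band of signal in which Tmprss15 lay, 8.88% of probesets exceeded control by 1.5-fold or more and 9.44% fell short of it by as much.

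The sequences upstream of the start of Mep1a and Tmprss15 are shown because Mep1a was lower on both of its probesets and Tmprss15 had the highest ratio. They are the 250 bases before the RefSeq start in GRCm38.p6, 5′ to 3′ on the strand of the gene, at chr17:43502774-43503023 (minus strand) and chr16:79091098-79091347 (minus strand). Capitals mark matches to 5 short motifs, searched on both strands. These were GTTAAT for HNF1, AGGTCA for nuclear receptors, AGATAA for GATA factors, TTTATG for CDX factors and TATAAA for the TATA box.
Mep1a: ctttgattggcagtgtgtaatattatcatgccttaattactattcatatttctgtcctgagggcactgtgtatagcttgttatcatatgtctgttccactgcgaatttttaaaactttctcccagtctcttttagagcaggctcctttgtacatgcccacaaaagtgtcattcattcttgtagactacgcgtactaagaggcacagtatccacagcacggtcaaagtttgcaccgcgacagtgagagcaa
Tmprss15: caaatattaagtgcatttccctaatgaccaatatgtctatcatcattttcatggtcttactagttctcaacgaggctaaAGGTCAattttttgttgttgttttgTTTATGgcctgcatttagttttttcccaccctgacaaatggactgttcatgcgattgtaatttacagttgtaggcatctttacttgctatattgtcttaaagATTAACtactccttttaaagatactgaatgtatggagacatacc
In Tmprss15 the nuclear receptor motif started 171 bases before the transcript start, the CDX motif 146 and the HNF1 motif, on the opposite strand, 44. Over all 32851 upstream windows of this length, 14% held the nuclear receptor motif, 10.8% the CDX motif and 6.43% the HNF1 motif. The Mep1a window held none of the 5, which says only that these letters are not in it. The GATA motif was present in 9.99% of all windows and the TATA box in 12.4%. Mep1b had no window among those used. Among the other measured peptidase genes, the upstream window of Dpp4 held matches to the GATA motif and to the TATA box letters. The window of Enpep and the upstream one of Ace matched the TATA box letters, and the downstream one of Ace the nuclear receptor motif. The TATA box matches of Enpep and Ace were on the opposite strand, 52 and 31 bases before the start. That of Dpp4 was 227 bases before it. No match was found for Anpep or in any of the 3 windows of Mme. Ggt1, which has no array value here, had 4 windows, of which 2 held a match. The windows also differed in base composition, from 34% G and C for Tmprss15 to 73.6% for 1 of the windows of Mme, with a median of 52.4% over all windows. A match is a description of the letters, and binding was not measured.

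Counted over probesets, 2 of 14 exceeded control by 1.5-fold or more and 0 of 14 lay below it by as much. Over all kept probesets the shares were 8.06% higher and 8.89% lower. The 2 were the Mme probeset 1455961_at and Tmprss15. Of the 13 peptidase probesets in the brightest 25% of kept probesets, 1 was higher and 0 lower, where 4.1% of all probesets in that band were higher and 1.76% lower. No peptidase probeset reached 2-fold in either direction, which 2.29% of kept probesets did upward and 2.57% downward. Ratios lay within 1 local SD of 0 for 8 probesets and beyond 2 local SDs for 2, Mme 1455961_at and Mep1a 1447252_s_at. The latter was at -2.005 local SDs, and the brighter Mep1a probeset at -1.87. The share of all kept probesets past these limits was not computed, so whether these counts are unusual is not known. With the brightest probeset for each gene, 2 of 8 genes were at least 1.5-fold higher and 0 lower, against 6.19% and 7.94% of 11707 genes. Of these, Mme passed on 1455961_at only. With the mean of its kept probesets its log2 ratio was 0.31, short of 1.5-fold. The median log2 ratio was -0.03 over the 8 genes and 0.04 over the 14 probesets, beside -0.05 over all genes and -0.04 over all kept probesets. Being near 0, the median over the genes also changed sign with the scaling of the arrays.

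**Figure D3:**
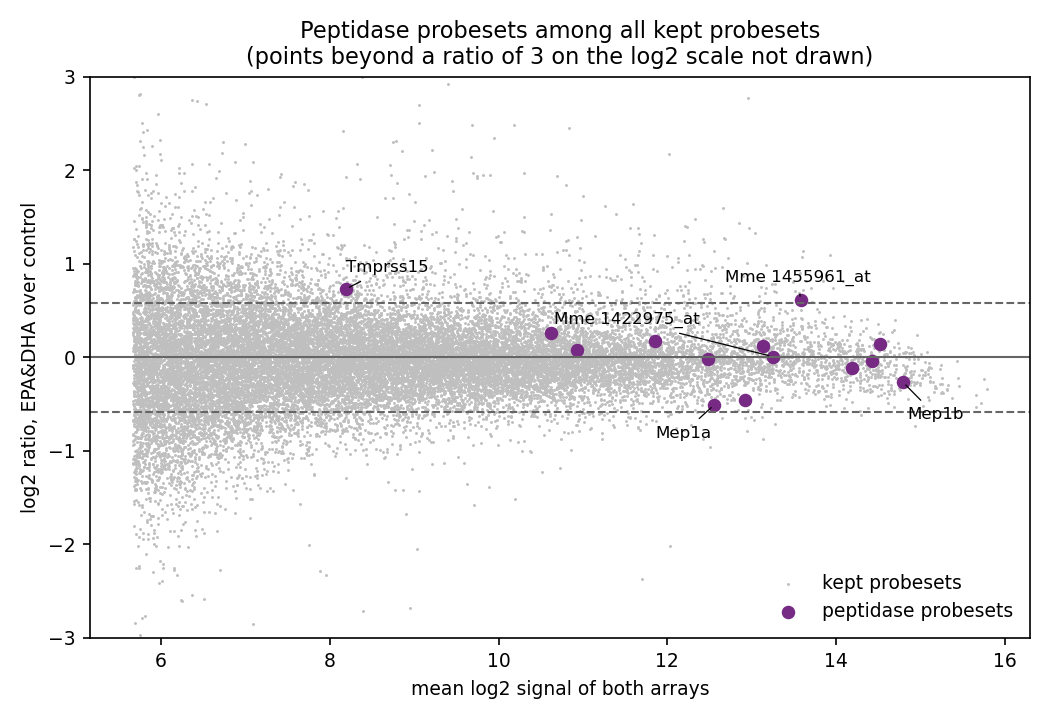
Log2 ratio of EPA&DHA over control (y axis) against mean log2 signal (x axis) for all kept probesets (grey) and the 14 peptidase probesets (purple), with dashed lines at 1.5-fold and 13 grey points outside the axis. Tmprss15 lies at lower signal, where the grey cloud is wider, and Mme 1455961_at lies above the upper dashed line at high signal.

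Other genes of protein digestion and absorption were set beside the peptidases. Each gene is given by its brightest probeset, and where its other kept probesets passed 1.5-fold this is stated. Of 4 measured membrane peptidases outside the 9 genes, 0 were at least 1.5-fold higher or lower, with a median log2 ratio of -0.17. The lowest was Naaladl1, a dipeptidase-like protein of the ileum, at -0.36, and the highest Cpm, a carboxypeptidase that removes basic residues, at 0.13. Dpep1, a membrane dipeptidase that acts after γ-glutamyltransferase on glutathione, was at -0.24. Of 11 cytosolic peptidases, which finish the breakdown of absorbed peptides, 0 passed 1.5-fold and 9 were below 0. Their median was -0.22, beside -0.05 over all genes. They ranged from -0.51 for Npepps, the puromycin-sensitive aminopeptidase, to 0.28 for Acy3, an aminoacylase. Over all 20 kept probesets of these genes 3 were at least 1.5-fold lower and 0 higher. The other Npepps probeset was at -0.67, and 2 of the 5 for Tpp2, a large tripeptidyl peptidase, were at -0.85 and -0.67, its brightest being at -0.13.
Of 11 peptide and amino acid transporters, 1 was at least 1.5-fold higher and 0 lower, with a median of -0.04. The higher one was Slc15a1, which encodes PepT1, with a signal of 2553 on control and 4506 on EPA&DHA. The ratio was 1.76, or 0.82 on the log2 scale, with a local SD of 0.23, on its only kept probeset. Slc6a19, the main apical carrier of neutral amino acids, was at 0.31 on its brightest probeset, and its other probeset passed 1.5-fold, with a signal of 5412 on control and 8724 on EPA&DHA and a log2 ratio of 0.69. The lowest was Slc7a9, part of the carrier for cystine and basic amino acids, at -0.36.

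Trypsinogen, the substrate of enteropeptidase, and most of the zymogens that trypsin activates were higher on EPA&DHA. Of 9 measured pancreatic zymogen genes, 8 were at least 1.5-fold higher and 0 lower, with a median log2 ratio of 1.78, and they ranged from 0.25 for Ctrc to 2.69 for Cpb1. Prss2, a trypsinogen, had a signal of 485 on control and 1876 on EPA&DHA, a ratio of 3.86, and its other 3 probesets were 3.78-fold to 3.87-fold higher. Trypsinogen genes are near-identical copies, and their probesets may read each other. Cela3b, an elastase, was at 1.935 on the log2 scale on its brightest probeset. Its other kept probesets that name it alone were at 1.66, 2.31 and 2.30. A list of 9 markers of the exocrine pancreas had 6 measured genes, all of them among these zymogens and so no separate evidence. Their summed signal was 2858 on control and 10704 on EPA&DHA, none being at 0. Tmprss15 itself is made by the duodenal epithelium rather than by the pancreas. By the paper's methods, the tissue taken began 3 cm below the stomach and ended at the caecum. The first part of the duodenum was thus left out, whereas the labels describe whole small intestine. Of 5 markers of the proximal small intestine, 0 passed 1.5-fold, with a median of -0.32. Their summed signal was 12822 on control and 10432 on EPA&DHA, of which Gip gave 7495 and 5626. Of 4 markers of the distal small intestine, 0 passed 1.5-fold, with a median of 0.07. Whether the pancreatic RNA or the length of intestine sampled had a part in the Tmprss15 ratio was not tested.

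**Figure D4:**
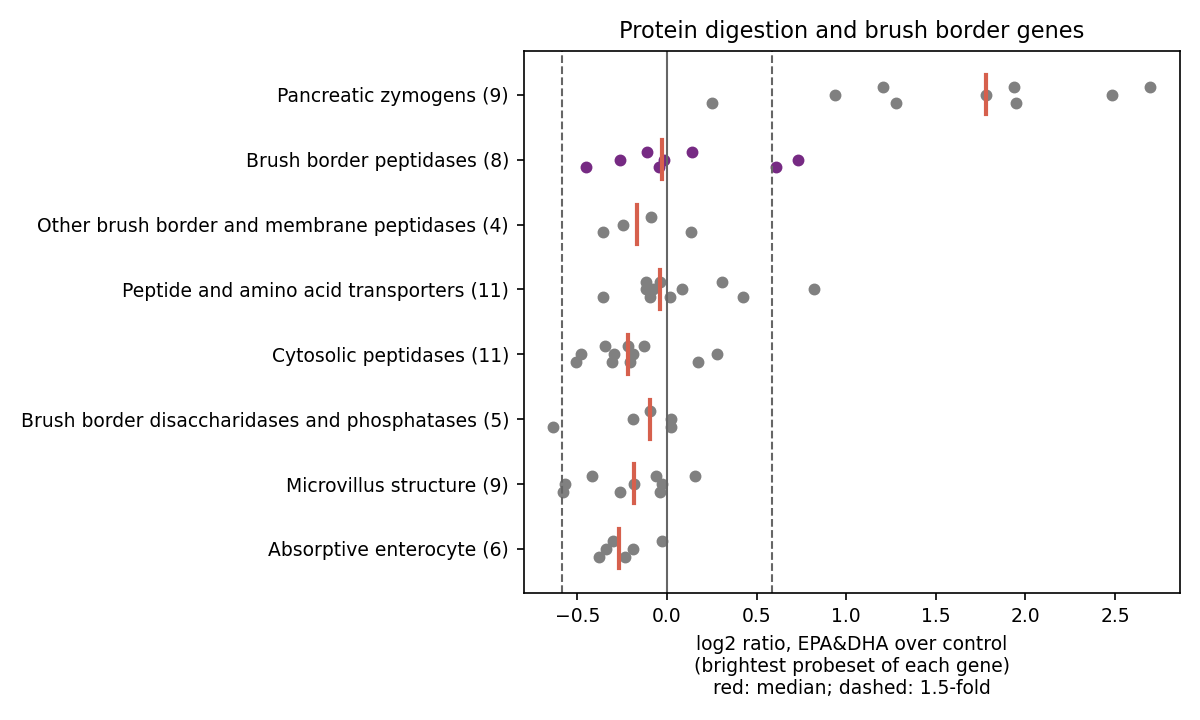
Log2 ratio of EPA&DHA over control (x axis) for each measured gene (points, brightest probeset) of 8 groups, gene numbers being in brackets, medians in red and 1.5-fold dashed. The peptidases (purple) range from -0.45 to 0.73 around a median of -0.03, while the pancreatic zymogens lie to the right with a median of 1.78.

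Other genes of the brush border were mostly below 0, and 3 of them, Akp3, Mall and Cdhr5, had lower ratios than any peptidase. The median over all genes was itself -0.05, and the share of all genes below 0 was not computed. Of 5 measured disaccharidases and phosphatases of the brush border, 0 were at least 1.5-fold higher and 1 lower, with a median of -0.09. Lct, lactase, was at -0.09 and Mgam, maltase-glucoamylase, at 0.02. The lower one was Akp3, an alkaline phosphatase, at -0.63. Of 9 genes of microvillus structure 0 passed 1.5-fold and 8 were below 0, with a median of -0.19. The lowest was Mall, a membrane raft protein, at -0.58, followed by Cdhr5, a protocadherin that links microvillus tips, at -0.57, and the highest was Ezr, which links membrane to actin, at 0.15. Of 7 transcription factors of the enterocyte 0 passed it, with a median of -0.14. They ranged from -0.32 for Gata4 to 0.16 for Gata6. Probesets of one factor disagreed for Hnf4a and Hnf4g, nuclear receptors of the gut epithelium. Hnf4g was at -0.02 on its brightest probeset but at 0.63 and 0.84 on the other 2, which were the only ones of 17 in this list to pass 1.5-fold. Hnf4a was at -0.31, -0.45 and -0.31 on 3 probesets and at 0.54 on another.

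The peptidases also belong to further pathways, which were described in the same way. In the glutathione cycle 1 of 7 measured genes was higher and 0 lower, with a median of 0.07. It was Gclc, the catalytic subunit that makes γ-glutamylcysteine, at 0.87, and at 0.81 on its other probeset. The lowest was Ggct, γ-glutamylcyclotransferase, at -0.28. Of the angiotensin system 3 of 9 genes were measured, with a median of 0.14. Beside Ace and Enpep this was Agt, the precursor angiotensinogen, which was 2.68-fold higher. Its control signal of 39.4 was under the lowest mean signal kept, so this ratio rests on a dim value. Of 5 measured peptide hormones that DPP4 or neprilysin can cut, 0 passed 1.5-fold, with a median of 0.09. They ranged from -0.41 for Gip, an incretin, to 0.26 for Tac1, the precursor of substance P.

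Several of the peptidases are also made by cells other than enterocytes, such as Ace by endothelium, Dpp4 by T cells and Mme by stromal cells. In RNA of pooled tissue, fewer cells of a type and less RNA per cell cannot be told apart. Of 7 enterocyte markers 6 were measured, Sis not being among them. None passed 1.5-fold, and all 6 were below 0, from -0.38 for Apoa4 to -0.03 for Vil1. Their median was -0.27, beside -0.05 over all genes. The summed signal was 270672 on control and 224644 on EPA&DHA, mostly from Apoa1, Fabp1, Fabp2 and Apoa4. Vil1 and Alpi also stand in the lists of microvillus structure and phosphatases. A summed signal mainly follows the brightest genes of its list. The 3 measured villus tip markers had a median of -0.13, and a dim probeset of Nt5e was at 1.14. The control signal of that Nt5e probeset was 46.4, under the lowest mean signal kept. All 4 goblet cell markers were below 0, with 0 past 1.5-fold and a median of -0.33, while another probeset of Clca1 was at -0.93. Of 5 crypt and cycling genes 1 was higher, Olfm4 at 0.72, with a median of -0.13. Over their 8 kept probesets 4 were higher and 0 lower, where 8.06% of all kept probesets were higher and 8.89% lower. The others were dimmer probesets of Lgr5, Ascl2 and Top2a. Those of Lgr5 and Ascl2 had control signals of 45.6 and 24.2, under the lowest mean signal kept, so these ratios rest on dim values. The brightest probesets of Lgr5, Ascl2 and Top2a were at -0.39, -0.38 and 0.08.
Of 7 endothelial markers 4 were measured, Pecam1, Tek and Emcn being too dim to be kept. Of the 4, 0 passed 1.5-fold, with a median of -0.06 and summed signals of 408 and 386 on control and EPA&DHA. Their signals, from 61.6 to 147, were near the lowest mean signal kept, 50.8, and their local SDs were wide, from 0.47 to 0.59. Of 8 markers of smooth muscle and stroma 6 were measured, with 1 lower (Dcn, -0.90), a median of -0.22 and summed signals of 2095 and 1723. Of 7 markers of T cells and intraepithelial lymphocytes 6 were measured, with Cd3e higher at 0.61, Cd8a lower at -0.82 and a median of -0.07. Their summed signals were 9375 and 8076, of which Gzma gave 6590 and 5391. Another probeset of Itgae was at -0.77. Other kept probesets of Cd8a were at 0.02, -0.26 and -0.52, none past 1.5-fold. Of 5 measured B and plasma cell markers 0 were higher and 3 lower (Ms4a1, Cd79a and Cd79b), with a median of -0.65. Their summed signal, 12798 on control and 15785 on EPA&DHA, came mostly from Jchain, with 11507 and 14860. Jchain was at 0.37 on the log2 scale, so the sum is no separate measure. The other kept probeset of Ms4a1 was at -0.11, short of 1.5-fold. Of 4 macrophage markers 0 passed 1.5-fold, with a median of -0.22 and summed signals of 2544 and 2334. No marker was listed at 0. The part of these cells in the ratios of Mep1a, Mep1b, Ace, Dpp4 and Mme was not tested.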

How the data were processed

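RNA of small intestine was measured on Affymetrix MOE430_2 arrays, 1 pool per diet. The methods describe scraped epithelial cells, whereas the labels describe whole small intestine. The authors summarized probe intensity with MAS 5.0 (version not given in the sources used here), and the deposited values are such intensity signals, on a linear scale. The 2% trimmed mean was 500.0 on both arrays, and signals were rescaled to make it equal. Gene names came from the platform annotation, updated through gene identifiers to the RefSeq table of GRCm38.p6. Of 45101 probesets, 64 controls were set aside, 34957 named 1 gene, 920 several and 9160 none. Log2 ratios were taken without an offset. A gene took its brightest kept probeset that names it alone. Detection calls and change p-values were not used. The peptidases, 23 gene lists and call rules were chosen with earlier results of these data known. All peptidases are named, and from the lists genes past 1.5-fold or at either end. Not all such genes are named for the disaccharidases, the zymogens and the markers of cells or regions. Cdhr5 and genes whose other probesets passed 1.5-fold were named after their values were seen. With 2 arrays the pattern of a gene is a single ratio, so no genes were ranked by likeness to a peptidase. Markers of the Brunner gland gave no measured gene. Upstream sequences were from RefSeq, matched by symbol for 8 of the 9 genes in 14 windows. Alternatives changed the scaling, offset, filter, probeset choice and fold. The steps were tested on simulated data. Computations ran in Python 3.11.15 with pandas 2.3.3 and numpy 2.4.6, loess in statsmodels 0.14.6, and plots in matplotlib 3.10.9.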

Additional observations from a re-analysis of the deposited data

How the results depend on the processing

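Of 95 values recomputed under 12 alternatives, 91 stayed within the local SD of the ratio or within 1.5 times the count. Part of them could not change, so the 91 is no measure of robustness. The arrays already had equal trimmed means, and no brightest peptidase probeset was left out for its suffix. Genes with 1 probeset also kept their value when the mean was taken. With only the brightest 10000 probesets, 1 peptidase probeset was at least 1.5-fold higher, since this filter leaves out Tmprss15, and with 2-fold as the limit there were 0. With the mean of all kept probesets per gene, the log2 ratio of Mme was 0.31 and that of Dpp4 0.088. The ratio of Mep1a stayed between -0.48 and -0.41, that of Mep1b between -0.26 and -0.14 and that of Tmprss15 between 0.62 and 0.76. Ratios near 0 changed sign, from -0.04 to 0.03 for Anpep and from -0.03 to 0.08 for Ace, as did the median over the genes, from -0.04 to 0.08. No paired analysis was possible because each diet has 1 array. Over all kept probesets, the shares at least 1.5-fold higher and lower, 8.06% and 8.89%, were 18.7% and 23.1% with no filter, 4.45% and 4.16% with an offset of 50, and 4.33% and 2.23% in the brightest 10000. Of the probesets past 1.5-fold in either direction, 47.6% were higher in the main setting. This share was 55.0% with loess correction and 66.0% in the brightest 10000. The dim signal of Tmprss15 limits how well its ratio is known.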
